A study of Helianthus annuus with 2 samples.

Results

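H3K4me3, the trimethylation of lysine 4 of histone H3, was mapped by ChIP-Seq in developing seeds of sunflower (Helianthus annuus) at 28 and 13 days after anthesis (DAA), and this report describes the wide peaks that were found only at 28 DAA. A peak, called an interval here, is a stretch of the genome that the peak caller MACS2 marked as enriched in immunoprecipitated DNA fragments. The intervals were chosen by their measured width and position, namely every interval of the 28 DAA list on the 17 chromosomes that was 500 to 1000 bp wide and shared not 1 bp with an interval of the 13 DAA list. They numbered 9336 of the 122415 intervals of the 28 DAA list on the chromosomes (7.63%, 95% Wilson interval 7.48 to 7.78%), out of 288543 intervals in both lists on all sequences. Together they covered 6.06 Mb, or 13.2% of the bases in chromosomal intervals at 28 DAA. With only the 13 DAA intervals of a q-value of at most 1e-10 counted as partners, 14183 intervals would have met the rule.

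Both groups were seeds of the high-oleic mutant line CAS-9, grown in chambers and untreated, and the chromatin was taken from whole developing seeds with an antibody against H3K4me3. The 28 DAA seeds stand for the late and the 13 DAA seeds for the early stage of fatty acid synthesis. There was 1 library per stage, so no value below has a replicate error and no test between stages was made. Reads of CAS-9 were mapped by the authors to the genome of another inbred line, XRQ, and positions are those of that assembly as the lists give them, counted from 1. The paper's text assigns the number of lines in each deposited list to the opposite stage, so the stage of a value is the label of its list throughout. Since whole seeds were used, fewer cells with the mark and less of the mark per cell cannot be told apart. With 1 library per stage, a difference between the stages and a difference in enrichment between the libraries cannot be told apart either. Over all intervals on the chromosomes, the median width was 282 bp in the 28 DAA list and 187 bp in the 13 DAA list.

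In plants, H3K4me3 is written by SET-domain methyltransferases that work in COMPASS-like complexes and is removed by JmjC-domain demethylases. The mark lies mainly on the nucleosomes at the start of transcribed genes, where proteins with a PHD finger can bind it, and a wider interval spans more nucleosomes in a row. In Arabidopsis seeds it is found on master regulators of seed maturation such as ABI3 and FUS3, which direct the storage of oil and protein. Gene models of this assembly were not used, so the intervals below are named by their position and not by a gene.

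An interval of the 28 DAA list was less often without a 13 DAA partner the wider it was. Of the 28 DAA intervals of any width, 66.4% overlapped no 13 DAA interval, and of the 21638 intervals of 500 to 1000 bp 43.1% did not. The share was 51.8% (Wilson interval 50.7 to 52.9%) at 500 to 599 bp, 45.4% (44.1 to 46.8%) at 600 to 699 bp, 38.2% (36.7 to 39.8%) at 700 to 799 bp, 31.7% (30.0 to 33.6%) at 800 to 899 bp and 25.5% (23.6 to 27.6%) at 900 to 1000 bp. Outside the chosen widths the same order held, with 81.0% below 200 bp and 8.69% above 1500 bp. These shares describe the rule that chose the intervals and were not tested. The reverse comparison gave far fewer wide intervals. The 13 DAA list had only 4570 intervals of 500 to 1000 bp among its 162824 on the chromosomes, against 21638 of 122415 at 28 DAA. Of the 4570, 1030 lacked a 28 DAA overlap (22.5%), against 72.9% of the 13 DAA intervals of any width.

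**Figure D1:**
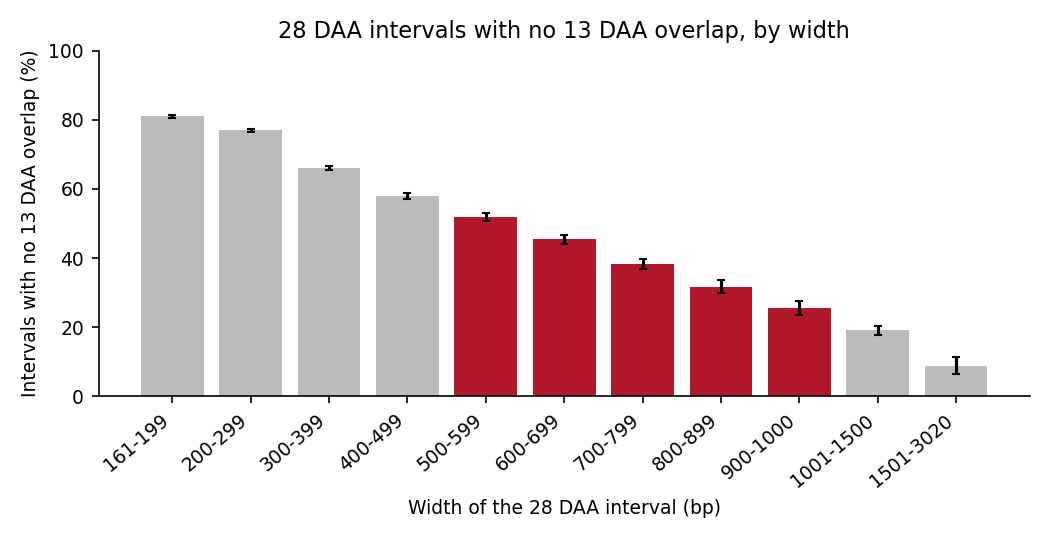
Share of 28 DAA intervals (y axis, %) that overlapped no 13 DAA interval, by width of the interval in bp (x axis), with the chosen widths in red and 95% Wilson intervals as error bars. The share fell in every step, with 51.8% at 500 to 599 bp and 25.5% at 900 to 1000 bp.

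The limits of the rule cut through a continuous range of widths. There were 56 chosen intervals of exactly 500 bp, with a median fold enrichment of 8.06, and 54 intervals of 499 bp without a 13 DAA overlap, with a median of 6.86. At the upper limit, 8 chosen intervals were exactly 1000 bp wide (median 7.26), and 5 unpartnered intervals of 1001 bp lay just outside (6.05). Most of the chosen intervals were near the lower limit, as the median width was 617 bp (quartiles 550 and 723 bp), and 4119 of them were below 600 bp. The first in genome order of exactly 500 bp, on chromosome 1 from 24262540 to 24263039, had 124 fragments at its summit. The first of exactly 1000 bp, on chromosome 1 from 137397436 to 137398435, had 127 fragments.

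Wide 28 DAA only intervals were strong peaks by the standards of their own library. The fold enrichment is the ratio of the fragments piled up at the highest point of a peak, its summit, to those the local background predicts. Its median was 7.74 in the wide 28 DAA only intervals (quartiles 5.96 and 9.83, highest 24.4), against 5.91 in all 28 DAA intervals. The number of fragments at the summit, computed as the whole number that fits both the fold enrichment and its p-value, had a median of 71 in the wide 28 DAA only intervals (quartiles 51 and 94, range 15 to 205), against 43 in all 28 DAA intervals. The q-value was at most 1e-10 in 98.4% of the chosen intervals and in 76.1% of all 28 DAA intervals. Width and fragment number are linked within a library, so these values follow in part from the rule.

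Set against the 12302 intervals of the same widths that did overlap a 13 DAA interval, the 28 DAA only intervals were lower in each measure of the 28 DAA library. They had a median of 71 fragments at the summit, against 116 in the overlapping ones (quartiles 79 and 148), and 19.4% of them exceeded 100 fragments, against 61.3%. The medians of the fold enrichment were closer, 7.74 in the 28 DAA only intervals and 8.79 in the overlapping ones, and the local background differed in the same direction. That background was a median of 8.00 fragments around the 28 DAA only intervals and 11.7 around the overlapping ones. The distributions overlapped widely, as the upper quartile of the 28 DAA only intervals (94 fragments) lay above the lower quartile of the overlapping ones. The 71191 narrower 28 DAA only intervals had 35 fragments in the median and a fold enrichment of 5.45. Among the chosen intervals, the median number of fragments was 66 at 500 to 599 bp and 83 at 900 to 1000 bp, while the median fold enrichment stayed between 7.67 and 7.94 in all 5 width classes.

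**Figure D2:**
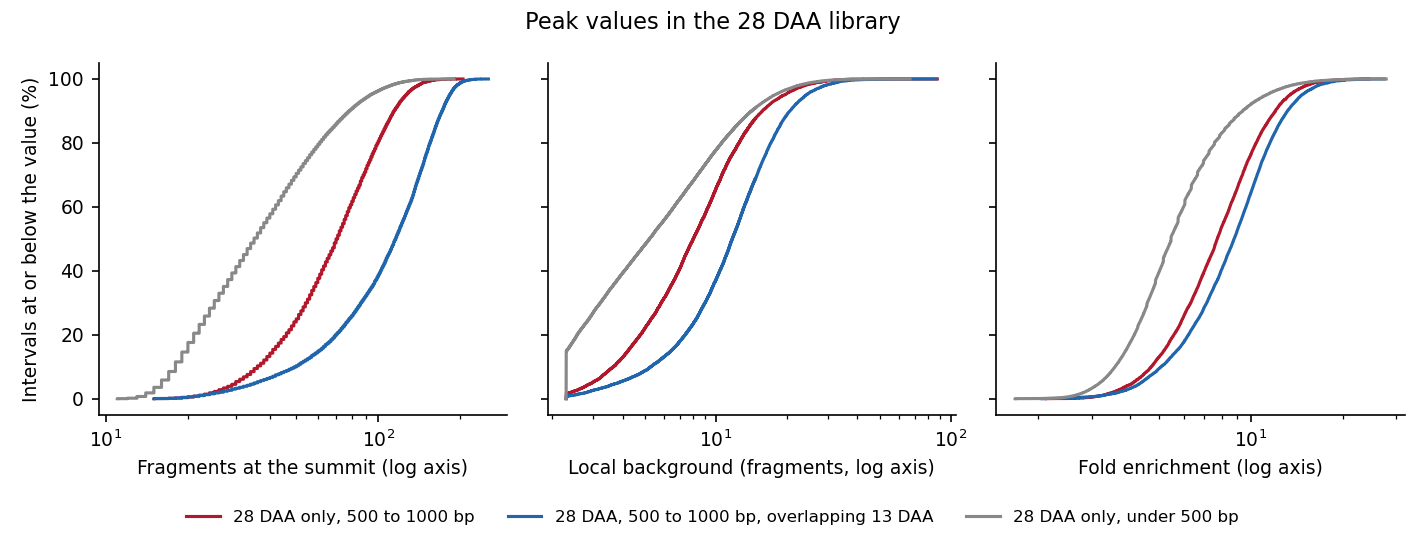
Cumulative share of intervals (y axis, %) by fragments at the summit, local background in fragments and fold enrichment (x axes, log scale) in the 28 DAA library, for wide 28 DAA only intervals (red), intervals of the same widths that overlapped a 13 DAA interval (blue) and narrower 28 DAA only intervals (grey). The red curve lies between the other curves in the middle of each panel, with medians of 71 fragments against 116 in blue and 35 in grey.

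The 13 DAA list gives no value at these places, and a missing interval is not the absence of the mark. The weakest summit in the 13 DAA list had 10 fragments, which occurred where the local background was at its lowest value, and where that background was between 10 and 20 fragments the weakest listed summit had 30. Divided by the genome-wide background of the library in question, the summits of the wide 28 DAA only intervals stood at a median of 30.9 times (lowest 6.52 times). On this scale the whole 13 DAA list was lower, with a median of 9.05 times (quartiles 7.62 and 11.0) and a lowest summit of 4.76 times. All 28 DAA intervals had a median of 18.7 times (quartiles 10.9 and 33.0). Whether the chosen places would have been listed at 13 DAA was thus not tested. The genome-wide background itself was similar, with 143 fragments per 10 kb in the 28 DAA library and 157 in the 13 DAA library. By comparison, the 1030 wide intervals without a 28 DAA overlap reached 26 fragments in the median at 13 DAA, 12.4 times the genome-wide background of that library, and a fold enrichment of 5.81. The 95% intervals given throughout cover counting error only.

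The intervals with the highest fold enrichment lay farther from a 13 DAA interval than the median of all chosen intervals, given below, and stood on a low background. The highest, 24.4, was on chromosome 5 from 96767051 to 96767778, with 103 fragments at the summit (95% Poisson interval 84.1 to 125) over a background of 3.27. The nearest 13 DAA interval lay 14439 bp away and had 18 fragments. The next, 24.1, was on chromosome 17 from 31147461 to 31147993, with 130 fragments (109 to 154), a q-value of 134 as −log10 and a distance of 12905 bp to the nearest 13 DAA interval. The third, 23.8, was on chromosome 12 from 63458237 to 63459007, with 83 fragments (66.1 to 103) over a background of 2.53. Its nearest 13 DAA interval, 7681 bp away, was 360 bp wide and overlapped no 28 DAA interval.

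The intervals with the most fragments instead had close neighbours in the 28 DAA list. The interval on chromosome 13 from 50383876 to 50384695 had 205 fragments at the summit (178 to 235) over a background of 23.4, so that its fold enrichment was 8.44, and another 28 DAA interval began or ended 240 bp away. The interval on chromosome 7 from 86535590 to 86536285 had 193 fragments (167 to 222), with a 28 DAA neighbour at 79 bp and a 13 DAA interval at 540 bp. On chromosome 16, the interval from 93154461 to 93154962 had 191 fragments (165 to 220) and a 28 DAA neighbour at 96 bp, but the nearest 13 DAA interval was 22617 bp away.

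The distance to the nearest 13 DAA interval had a median of 4570.5 bp (order-statistic 95% interval 4399 to 4730 bp, quartiles 1464 and 10145 bp). This value depends on which 13 DAA intervals are listed and counted, as it was 17157 bp when only 13 DAA intervals with a q-value of at most 1e-10 were kept. It was 417 bp when an overlap had to cover 50% of both intervals. That rule also took in intervals with a smaller overlap, which entered the median as if they abutted a 13 DAA interval. The 417 bp is therefore not the same measure. With the list as deposited, the distance was at most 100 bp for 25 of the 9336 intervals (0.268%), at most 500 bp for 10.1%, at most 1000 bp for 19.2% and at most 10 kb for 74.5%. A distance over 50 kb was found for 78 intervals, and 2 lay more than 100 kb away. Narrower 28 DAA only intervals had a median of 4121 bp (4060 to 4180 bp) and were at most 1000 bp from a 13 DAA interval in 22.9% of the cases, against 19.2% (18.5 to 20.1%) of the wide ones. At larger distances the shares drew together, with 99.2% of both kinds within 50 kb. For scale, the gap between consecutive intervals of the 13 DAA list had a median of 10852 bp.

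Intervals with more fragments lay closer to a 13 DAA interval. When the 9336 intervals were ranked by fragments at the summit and divided into groups of 20%, the median distance was 7025 bp (6576 to 7536 bp) in the lowest group, with 15 to 46 fragments, and then 5289, 4487 and 3518 bp. In the highest group, with 100 to 205 fragments, it was 2676.5 bp (2427 to 2844 bp). Ranked by fold enrichment the order was the opposite, with 2242 bp (2078 to 2486 bp) in the lowest group and 7519 bp (7106 to 7952 bp) in the highest. The local background moved with both, since the median distance was 8952 bp in the 20% with the lowest background and 1590.5 bp in the 20% with the highest. The part of the background in the order by fold enrichment was not tested.

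**Figure D3:**
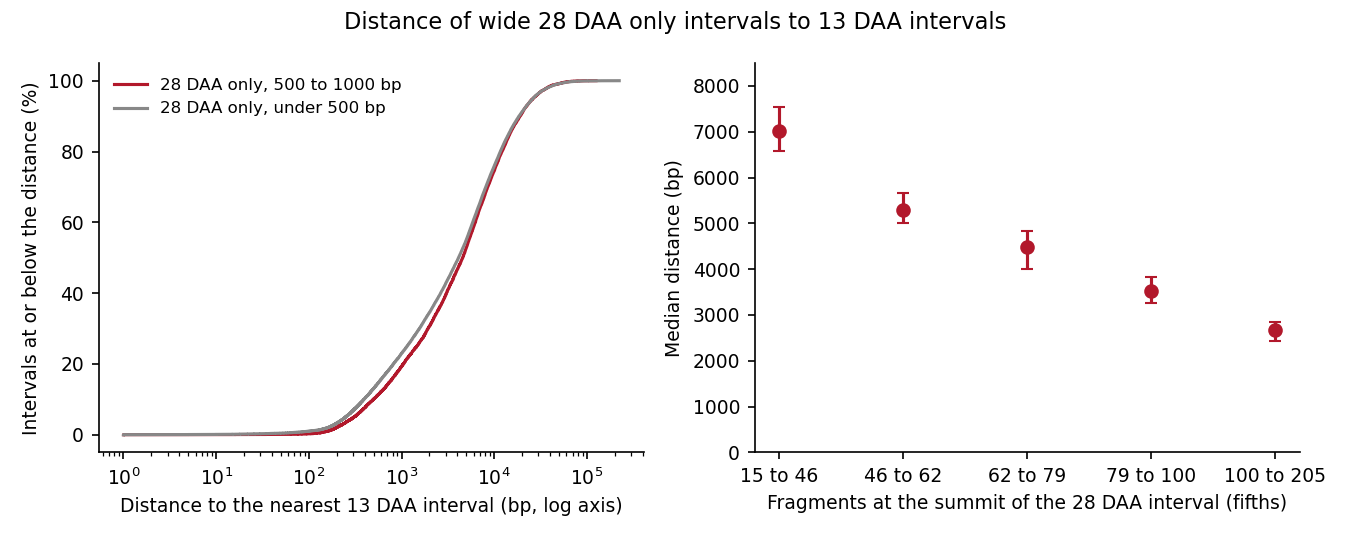
Left, cumulative share of intervals (y axis, %) by distance to the nearest 13 DAA interval (x axis, bp, log scale, with abutting intervals drawn at 1 bp) for wide (red) and narrower (grey) 28 DAA only intervals. Right, median distance in bp of the wide intervals in groups of 20% by fragments at the summit, with order-statistic 95% intervals, which was 7025 bp in the lowest and 2676.5 bp in the highest group.

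The 13 DAA intervals next to the chosen ones were ordinary in size but were often themselves shared. The nearest 13 DAA interval had a median width of 192 bp and 19 fragments at its summit, against 187 bp and 19 fragments in the whole 13 DAA list. It overlapped some other 28 DAA interval in 38.1% of the cases (37.2 to 39.1%), against 27.1% of all 13 DAA intervals. Among the 1797 chosen intervals within 1 kb of a 13 DAA interval this share was 75.8% (73.8 to 77.8%), and among the 2380 more than 10 kb away it was 27.4% (25.6 to 29.2%). For those within 1 kb, the local backgrounds of both libraries could be set side by side, because they were counted over windows of 10 kb that largely coincide. The 28 DAA window held a median of 704 fragments (quartiles 529 and 945), or 4.93 times the genome-wide background, and the 13 DAA window 206 fragments (158 and 273), or 1.32 times. The 28 DAA window contains the chosen interval itself, so its higher level follows in part from the rule and is given as a description. On this relative scale it was the higher in 99.4% of the 1797 cases, against 97.0% of the intervals of the same widths that overlapped a 13 DAA interval, whose medians were 5.10 times at 28 DAA and 1.37 times at 13 DAA.

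At the short end of the range, the closest interval was separated from a 13 DAA interval by 1 bp. It lay on chromosome 13 from 113341154 to 113341770, had 63 fragments (48.4 to 80.6) and a fold enrichment of 3.34, and the 13 DAA interval beyond it, from 113341772 to 113341972, had 17. On chromosome 2, the interval from 176314050 to 176314587 was 2 bp from a 13 DAA interval and had only 22 fragments (13.8 to 33.3). On chromosome 3, the interval from 117217372 to 117218000 was 5 bp from a 13 DAA interval that was itself wide, 755 bp, with 26 fragments. These cases passed the rule by a few bases, and each had a neighbour in the 28 DAA list within 112 bp.

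At the long end, the farthest intervals lay, as their distance requires, in stretches where the 13 DAA list was empty. The farthest, on chromosome 7 from 97766558 to 97767071, had 61 fragments (46.7 to 78.4) and a fold enrichment of 16.2, and it stood near the centre of a stretch of 252 kb without any 13 DAA interval, in which the 28 DAA list had 3 intervals. The interval on chromosome 16 from 58055089 to 58055851 had 49 fragments (36.3 to 64.8) in an empty stretch of 274 kb with 4 intervals of the 28 DAA list. On chromosome 3, the interval from 41290082 to 41290634 had 48 fragments (35.4 to 63.6) in a stretch of 208 kb with 3. In each of these stretches, the other 28 DAA intervals were narrower than 500 bp.

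Within the 28 DAA list, the chosen intervals had a close neighbour about as often as the sets most like them. Intervals no more than 1 kb apart were joined into domains, and 5314 of the 9336 (56.9%) shared a domain with at least 1 other 28 DAA interval, whereas 4022 (43.1%, 42.1 to 44.1%) were alone. The share with a neighbour was 59.5% among the intervals of the same widths with a 13 DAA overlap and 55.9% among the narrower 28 DAA only intervals. In 1539 cases (16.5%, 15.7 to 17.3%) the domain held an interval that did overlap a 13 DAA interval, so that the chosen interval stood beside a shared one. For intervals of the same widths with a 13 DAA overlap, an additional shared interval was in the domain in 24.0% of the cases (23.3 to 24.8%). The narrower 28 DAA only intervals lay between, with a shared interval in the domain in 20.6% of the cases (20.3 to 20.9%). The remaining 3775 chosen intervals (40.4%) were in domains that had no 13 DAA overlap at all. Of the chosen intervals, 0.835% were in a domain with an interval over 1000 bp. This was 1.05% for intervals of the same widths with a 13 DAA overlap and 1.84% for the narrower 28 DAA only intervals.

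These 3 settings differed in their values. The 1539 beside a shared interval had the most fragments (median 84), the highest background (12.1) and the lowest fold enrichment (6.17), and their median distance to a 13 DAA interval, which the grouping itself keeps short, was 470.0 bp. The 4022 that stood alone had a median of 63 fragments, a background of 5.97 and a fold enrichment of 8.85, at 5829.5 bp from a 13 DAA interval. The 3775 in domains found only at 28 DAA were between them, with 72 fragments, a background of 8.82 and a fold enrichment of 7.41, at 6025 bp. The widths hardly differed, with medians of 603 bp beside a shared interval, 629 bp alone and 613 bp in the other domains.

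Clusters of wide 28 DAA only intervals were small, and most of these intervals had no other one within 10 kb. The nearest other one was a median of 77966 bp away (quartiles 23022 and 190318 bp). With gaps of up to 10 kb bridged, 1339 of the 9336 (14.3%, 13.6 to 15.1%) had another in their cluster, in 606 pairs, 41 groups of 3 and 1 group of 4. With gaps of up to 1 kb, 463 (4.96%) did, in 224 pairs and 5 groups of 3, and with gaps of up to 50 kb 3609 (38.7%) did, the largest group then holding 9. At 10 kb the share was 7.57% for widths of 600 to 1000 bp and 25.5% for widths of 400 to 1000 bp, which take in fewer and more intervals. Among the 234 consecutive pairs within 1 kb the median gap was 214 bp, and in 217 of them no other 28 DAA interval lay between. No share was computed for evenly spread intervals or for the overlapping ones, so whether the chosen intervals were clustered was not tested. Their counts in windows of 1 Mb, described below, were uneven, with a mean of 3.10 and a variance of 5.05.

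The group of 4 was on chromosome 7, from 97168957 to 97182145, a span of 13.2 kb with 6 intervals of the 28 DAA list and 3 of the 13 DAA list. Its members were 942, 785, 523 and 801 bp wide, with 92, 84, 110 and 137 fragments at their summits. They stood on high backgrounds, between 16.4 and 30.6 fragments, and so their fold enrichments were only 5.34, 3.12, 3.66 and 4.37. The 13 DAA intervals nearest to them were 457 to 2803 bp away and had 22 to 39 fragments. The farthest interval of all, described above, lay on the same chromosome 584 kb from this group, and both fell in 1 window of 1 Mb with 12 chosen intervals.

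The gaps between consecutive wide 28 DAA only intervals were unevenly distributed. There were 234 gaps below 1 kb, between 21 and 42 per kb of gap length from 1 to 5 kb, 103 from 5 to 6 kb and 89 from 6 to 7 kb, and from 46 to 58 per kb between 7 and 10 kb. The step at 5 kb coincided with a step in the local background. Where the nearest 28 DAA interval of any kind was less than 5 kb away (6703 intervals, 71.8%), the median background was 9.42 fragments and the fold enrichment 7.06. Where it was 5 kb or more away (2633 intervals), the background was 5.07 and the fold enrichment 9.70, while the fragments at the summit differed less, 74 for the near and 61 for the far ones. The background is counted over 10 kb, thus 5 kb to either side of a point, and its part in the low number of gaps between 1 and 5 kb was not tested.

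**Figure D4:**
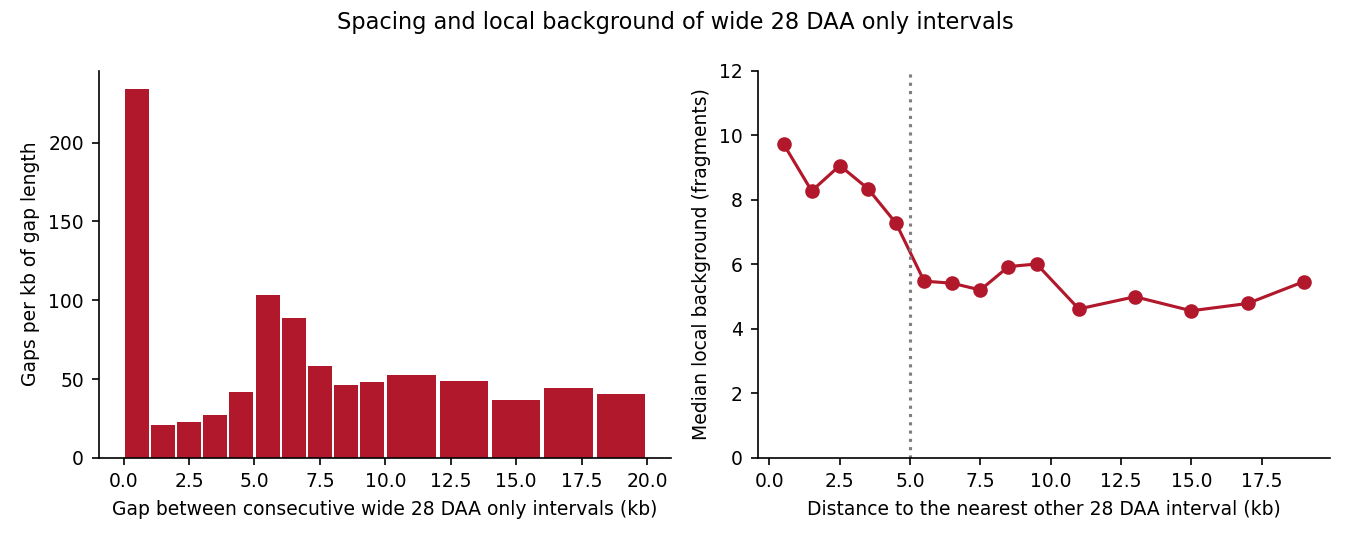
Left, gaps between consecutive wide 28 DAA only intervals, as gaps per kb of gap length (y axis) by gap in kb (x axis). Right, median local background in fragments (y axis) of these intervals by distance in kb to the nearest other 28 DAA interval (x axis), with 5 kb marked by a dotted line, below which the background lay between 7.27 and 9.72 fragments and above which it lay between 4.56 and 6.01.

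The summits of the chosen intervals lay in the centre less often than those of the intervals of the same widths with a 13 DAA overlap. Outside the central part of the interval, from 33.3% to 66.7% of its width, lay 6112 of 9336 summits (65.5%, 64.5 to 66.4%). In the intervals of the same widths with a 13 DAA overlap this was 55.7% (54.9 to 56.6%). The outer part takes up 66.7% of the width, but the summits were not evenly placed. In equal parts from start to end, the 28 DAA only intervals had 3.92, 29.3, 17.4, 17.1, 29.0 and 3.28% of their summits. The overlapping ones had 2.41, 25.0, 22.4, 21.8, 26.1 and 2.28%. The summit was a median of 165 bp from the nearer end in the 28 DAA only intervals and 207 bp in the overlapping ones. The difference in the share outside the central part was largest at 500 to 599 bp, where the shares were 67.3% (65.9 to 68.8%) and 50.4% (48.8 to 52.0%). At 900 to 1000 bp they were 62.5% (58.1 to 66.7%) and 60.4% (57.8 to 62.9%), whose intervals overlapped. The difference did not shrink at every step between. It was 61.8% against 59.1% at 700 to 799 bp, with overlapping intervals. At 800 to 899 bp it was 66.4% (63.1 to 69.6%) against 59.9% (57.6 to 62.2%), whose intervals did not overlap. Without the strand of a gene, the side on which the summit lay was not read.

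All 17 chromosomes held wide 28 DAA only intervals, in numbers that followed the 28 DAA list. The number ranged between 698 on chromosome 9 and 353 on chromosome 7. With the last interval of either list taken as the end of a chromosome, the density was highest on chromosome 6, at 3.53 per Mb (95% Poisson interval 3.18 to 3.91), and lowest on chromosome 2, at 2.66 per Mb (2.43 to 2.91), with a median of 3.13. Chromosome 14 followed at 3.47 per Mb, and chromosomes 10 and 5 were near the low end, at 2.74 and 2.83 per Mb. Per 100 intervals of the 28 DAA list the order was another, and chromosome 2 was the highest at 8.10 (Wilson interval 7.44 to 8.82), while chromosome 3 was the lowest at 7.26 (6.68 to 7.88). On this scale the intervals of all 17 chromosomes overlapped. As a share of the intervals of 500 to 1000 bp, the chosen ones made up between 45.6% on chromosome 5 (43.0 to 48.3%) and 41.1% on chromosome 4 (38.5 to 43.7%).

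**Figure D5:**
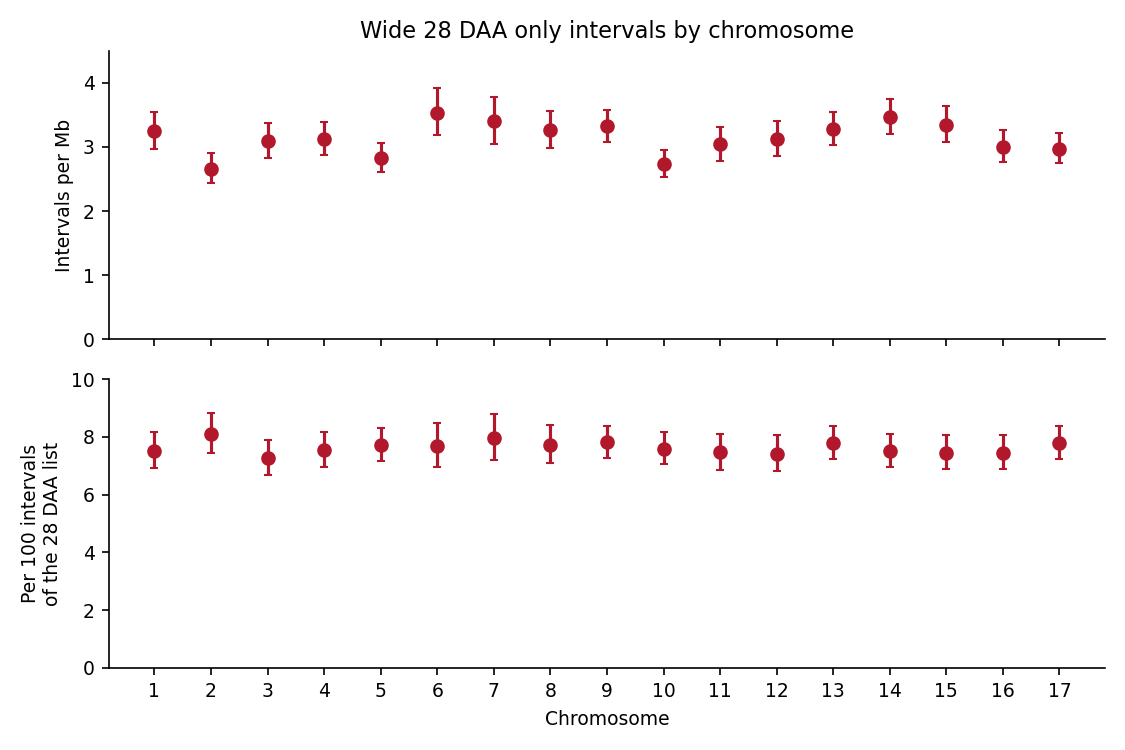
Wide 28 DAA only intervals on each of the 17 chromosomes (x axis), per Mb with 95% Poisson intervals (top) and per 100 intervals of the 28 DAA list with 95% Wilson intervals (bottom). Per Mb, chromosome 6 was highest at 3.53 and chromosome 2 lowest at 2.66, whereas per 100 intervals chromosome 2 was highest at 8.10.

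The medians of the fold enrichment and of the fragments varied less between chromosomes than the distance to a 13 DAA interval. The median fold enrichment was between 8.39 on chromosome 2 and 7.26 on chromosome 7, and the median number of fragments between 75 on chromosome 7 and 66 on chromosomes 3 and 16. The median distance to a 13 DAA interval was largest on chromosome 16, at 5233 bp, and smallest on chromosome 13, at 3647 bp, a ratio of 1.43. Along the chromosomes, the first and last 10% of the length together held 24.4% of the wide 28 DAA only intervals (23.6 to 25.3%), compared with 26.4% (25.6 to 27.2%) of those with a 13 DAA overlap, 26.0% of all 28 DAA intervals and 21.7% of all 13 DAA intervals. The central 20% of the length held 16.7% (16.0 to 17.5%), compared with 16.2% of the overlapping ones and 18.9% of all 13 DAA intervals.

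In windows of 1 Mb, the chosen intervals were few and their number was uneven, with a mean of 3.10 and a variance of 5.05. The 3007 windows had a median of 3 (quartiles 1 and 4), 295 windows (9.81%) had none, and 36 had at least 10. The most, 13, were found on chromosome 12 from 17000001 to 18000000, where the 28 DAA list had 117 intervals and the 13 DAA list 94, and on chromosome 17 from 4000001 to 5000000, with 94 and 86. Across windows, the number of wide 28 DAA only intervals and the number of intervals of the same widths with a 13 DAA overlap had a Pearson r of 0.40 and a Spearman rho of 0.38. This is a description over 3007 windows that share 1 library and its depth.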

How the data were processed

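ChIP-Seq of H3K4me3 was performed in 28 and 13 DAA seeds, 1 library each. According to the methods, the authors filtered reads with FASTX-Toolkit, mapped them with BWA-MEM, removed duplicates with Picard and called peaks with MACS2. An input control and pooling are not given in the sources used here. The deposited score equals the whole part of 10 × −log10 q-value. The authors' fold enrichment is a ratio of summit over local background, and p-value and q-value were deposited as −log10. Interval ends and summits are deposited positions in bp.

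Fragments at a summit were solved from fold enrichment and p-value (Poisson, pseudocount of 1, tolerance of 0.001 on −log10 p), with a solution in 100% of both lists. In members above the genome-wide background, the background multiplied to 10 kb was a whole number within 0.05 in 100% of cases, with the shortest intervals, 161 bp at 28 DAA and 134 bp at 13 DAA, as fragment lengths. The code recovered 100% of 20000 simulated summits and of 3000 simulated interval distances. The overlap minimum was 1 bp. Wilson, Poisson and order-statistic 95% intervals cover counting error only.

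The regions named were the 3 highest in fold enrichment, the 3 highest in fragments, the 3 farthest from and nearest to a 13 DAA interval, the largest cluster, the fullest windows and those at the width limits. The window with 12 intervals was named after its values were seen. The rule and the choice of measures were made with earlier results of these data known. Alternatives were other q-value limits, overlap rules, widths, join distances and a density per interval. Computations ran in Python (version 3.11.15) with pandas (version 2.3.3), scipy (version 1.17.1) and numpy (version 2.4.6), and figures were drawn with matplotlib (version 3.10.9).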

Additional observations from a re-analysis of the deposited data

Results flagged for a closer look

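The rule covered the 17 chromosomes only, and the unplaced sequences also held wide intervals found only at 28 DAA. There were 22 of them on 18 unplaced sequences, among 145 intervals of 500 to 1000 bp there (15.2%, 95% Wilson interval 10.2 to 21.9%), against 43.1% on the chromosomes. They had a median of 67.5 fragments at the summit and a fold enrichment of 9.38, and for 3 of them the sequence held no 13 DAA interval at all. On the mitochondrial and plastid sequences, the 10 and 3 intervals of these widths each overlapped a 13 DAA interval.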

How the results depend on the processing

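Of the comparisons with an alternative, 10 stayed within the interval of the reported value (1.5 times for counts) and 18 moved. For the ratio of chromosome densities, that interval was 1.16 to 1.52. It was made from the counts of the highest and lowest chromosomes and makes no allowance for their having been picked as such. A ratio within it counted as unmoved even where another chromosome was the highest. A q-value of at most 1e-10 at 28 DAA moved none of the 4 results and left 9188 intervals. The same limit at 13 DAA, which removes weak 13 DAA intervals, gave 14183 intervals, a median distance of 17157 bp and 21.7% within 10 kb of another. Under an overlap rule of 50% of each interval, the values were 17168, 417 bp and 24.3%, with intervals of a smaller overlap counted as if abutting. With 13 DAA intervals within 1 kb counted as shared, the distance was 6161 bp and the share 13.4%. That rule drops the intervals within 1 kb of a 13 DAA interval, so the median distance was bound to rise. Widths of 600 to 1000 bp gave 5217 intervals, 4784 bp and 7.57%, and widths of 400 to 1000 bp gave 16022, 4390.5 bp and 25.5%. The share was 4.96%, 7.32% and 38.7% with joins of 1, 5 and 50 kb. The ratio of the highest to the lowest chromosome density, 1.33 per Mb, was 1.12 per 100 intervals of the 28 DAA list, with chromosome 2 highest instead of lowest. Chromosome 2 was the lowest per Mb under all 6 other alternatives, while the highest was chromosome 6 under 4, chromosome 9 under 1 and chromosome 15 under 1. All 9336 intervals were also found under the alternatives that added intervals, which their looser rules fix in advance. No paired analysis was possible because each stage had a single library. Depth limits both lists, whose weakest summits had 11 fragments at 28 DAA and 10 at 13 DAA.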

Other observations

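Among the 12302 intervals of the 28 DAA list with the same widths that did overlap a 13 DAA interval, the overlap was rarely marginal. The overlapped length had a median of 303 bp, or 44.8% of the 28 DAA interval, and it was below 50 bp in only 17 of them (0.138%).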
